A study of Mus musculus with 12 samples.

Results

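The genes described here are the butyrophilin-like genes of the gut epithelium, Btnl1, Btnl2, Btnl4, Btnl6 and Btnl9, which are 5 of the 23284 genes in the deposited table. They were chosen by symbol and by no rule on their measured values, though earlier results of these data were known at that time. Btnl2, Btnl6 and Btnl9 stand in the table under those symbols. Btnl1 and Btnl4 stand there under the older symbols Btnl3 and Btn3a3, which RefSeq lists as synonyms of Btnl1 and Btnl4 of the mouse. RNA came from the terminal ileum of 12 mice in 4 groups of 3. One group was wild type C57BL/6. A second was labelled Rag1-/-. The other 2 groups were Tcra-/-, of which one had been co-housed, sharing a cage with age-matched male wild-type mice for 4 to 8 weeks, and the other had been separately housed. All mice came from Taconic and were kept free of specific pathogens. The sources used here state neither the ages of the mice in weeks, nor the sex of mice other than those male cage mates, nor the number of cages. Mice of a group are numbered 1 to 3 in the order of their records, and the numbers pair nothing. The records name the separately housed mice by the letter T and 1 digit, and all other mice by 4 digits. What this difference in naming stands for is not stated, and it cannot be told apart from the separate housing in any comparison with that group. A test over such mice measures the spread among mice and not among cages.

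Butyrophilin-like proteins are membrane proteins of the immunoglobulin superfamily, related to the B7 family of lymphocyte regulators. In the mouse small intestine, enterocytes make Btnl1, which pairs with Btnl6 or Btnl4 at the cell surface, and the Btnl1 and Btnl6 pair shapes and maintains the intraepithelial gamma delta T cells that carry the V gamma 7 chain. Btnl2 is known as a protein that dampens T cell activation in culture, and Btnl9 is known more from other tissues than from gut epithelium. Rag1 is needed to join antigen receptor segments, and without it neither T cells nor B cells mature. Tcra encodes the receptor alpha chain, so Tcra-/- mice lack alpha beta T cells and keep gamma delta T cells.

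On mm9, 4 of the 5 genes lie in a cluster on chromosome 17 beside the class II genes of the major histocompatibility complex. Btnl2 (chr17:34491767-34506437) and Btnl1 (chr17:34514077-34522973) lie at its left end on the forward strand. Btnl4 (chr17:34605987-34612882) and Btnl6 (chr17:34644880-34654297) lie to the right on the reverse strand. Btnl9 (chr11:48981827-49000591) lies alone on chromosome 11, on the reverse strand. Each has 9 or 10 exons in the table, and none shares an exon base with another gene of the table. The windows of 250 bases before the RefSeq starts of the cluster genes are shown because the genes at its left end and its right end behaved differently in the data below. They are printed 5′ to 3′ on the strand of the gene, on GRCm38.p6, another build than the mm9 of the counts. Capitals mark CAAAGTCCA or its first 8 letters CAAAGTCC, a form of the site of the nuclear receptor HNF4, and AGATAA, which the GATA factors bind.
Btnl1, chr17:34376882-34377131, forward strand: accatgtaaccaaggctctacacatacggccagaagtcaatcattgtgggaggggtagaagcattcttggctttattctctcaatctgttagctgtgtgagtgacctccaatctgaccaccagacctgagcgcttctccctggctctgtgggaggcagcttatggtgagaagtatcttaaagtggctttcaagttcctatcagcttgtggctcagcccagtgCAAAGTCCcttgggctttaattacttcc
Btnl2, chr17:34354572-34354821, forward strand: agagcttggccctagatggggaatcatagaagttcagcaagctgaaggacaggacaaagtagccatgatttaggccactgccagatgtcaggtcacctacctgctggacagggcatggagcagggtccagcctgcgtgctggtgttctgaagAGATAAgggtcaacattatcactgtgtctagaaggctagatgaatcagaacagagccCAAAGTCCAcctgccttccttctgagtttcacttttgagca
Btnl4, chr17:34475938-34476187, reverse strand: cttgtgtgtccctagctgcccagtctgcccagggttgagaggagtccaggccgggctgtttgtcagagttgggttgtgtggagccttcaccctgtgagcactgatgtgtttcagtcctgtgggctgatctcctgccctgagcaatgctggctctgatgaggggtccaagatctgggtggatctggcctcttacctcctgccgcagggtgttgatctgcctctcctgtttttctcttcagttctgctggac
Btnl6, chr17:34517353-34517602, reverse strand: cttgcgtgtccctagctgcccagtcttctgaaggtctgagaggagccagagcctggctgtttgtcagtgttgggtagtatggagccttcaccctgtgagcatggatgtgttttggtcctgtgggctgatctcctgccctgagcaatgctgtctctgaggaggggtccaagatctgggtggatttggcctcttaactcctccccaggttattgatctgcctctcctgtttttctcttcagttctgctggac

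The Btnl1 window held CAAAGTCC from 28 to 21 bases before the start. The Btnl2 window held CAAAGTCCA from 41 to 33 bases before the start and AGATAA from 98 to 93. The Btnl4 and Btnl6 windows held none of the 5 sequences searched on both strands, which were the HNF4 form and its first 8 letters (which every full HNF4 form contains), the GATA form, the CDX form TTTATNG and the STAT form TTCNNNGAA. These motifs were chosen with the sequences and earlier results in view. Over 32851 RefSeq windows of that length, the full HNF4 form was in 0.384%, its first 8 letters in 1.20%, the GATA form in 9.99%, the CDX form in 9.81% and the STAT form in 7.02%. A match describes letters only and is not evidence that a factor binds, and no match says only that these letters are not in this window. Aligned end to end with gaps allowed, the Btnl4 and Btnl6 windows had 225 identical bases of 250 (90.0%), against 134 (53.6%) for Btnl1 and Btnl2. All other pairs of members, those with Btnl9 included, had 46.8% to 53.2%, so the value of Btnl1 and Btnl2 is hardly above the rest. The Btnl4 window lies inside an intron of a longer GENCODE transcript of the same gene, so it does not precede every annotated start.

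The libraries held 37061276 to 50581616 reads counted to genes. Reads on the exons of Rag1 numbered 236 in the 3 mice labelled Rag1-/- and 0 in the other 9 libraries; the sources used here do not say which part was deleted, so this does not check the label. Summed B cell transcripts followed that label, with 7.65 to 10.4 CPM (read counts scaled to a common library size) in mice labelled Rag1-/- and 60.3 to 234 CPM in the others. The epithelial marker list (10 genes, such as Epcam and Krt8, none of them at 0) summed to 13768 to 15224 CPM over all 12 libraries. Single markers were less steady than this sum. By the edgeR test given below, 3 of the 10 were higher and 2 lower in co-housed than in separately housed mice (21.1% and 17.7% of all genes tested). Epcam had 2034 ± 168 CPM in co-housed and 2613 ± 98.0 in separately housed mice, and Elf3 had 564 ± 46.1 and 276 ± 27.1 (SD, n = 3). T cell markers summed to 71.7 to 106 CPM in wild type, 27.3 to 64.3 in co-housed Tcra-/-, 11.3 to 12.7 in separately housed Tcra-/- and 7.81 to 10.7 in mice labelled Rag1-/-. In bulk tissue, fewer cells of a type and less RNA per cell cannot be told apart, here and in all results below.

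Btnl1, Btnl2, Btnl4 and Btnl6 were well expressed in the ileum and Btnl9 was at the edge of detection. Per length, Btnl6 led with a mean of 239 RPKM (CPM per kilobase of exon length; range 192 to 269 over 12 libraries). Btnl1 followed at 140 RPKM (111 to 190), then Btnl4 at 73.9 RPKM (61.0 to 94.9) and Btnl2 at 48.9 RPKM (39.4 to 61.0). This order held in every library, since the ranges did not overlap, although the lowest value of Btnl4 all but met the highest of Btnl2. The first 4 genes had 4122 to 20429 reads per library. Btnl9 had 56 reads in all, 0 to 11 per library, and stayed under the filter on low counts, so 4 of 5 members were tested. A neighbouring gene of the cluster, the table's Btnl5, which RefSeq lists as the pseudogene Btnl5-ps, had 271 RPKM (238 to 311), a range that overlapped that of Btnl6.

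Reads of 50 bases can be shared among some of these genes. Over the GENCODE transcripts, 13.8% of the 50-base windows of Btnl4 and 6.58% of those of Btnl6 also occur in another of the 6 related genes compared, against 0% for Btnl1, Btnl2 and Btnl9. At 100 bases the shares were 3.16% for Btnl4 and 0.0605% for Btnl6. The sources used here give neither the read length nor how multi-mapped reads were handled, so values of Btnl4, Btnl6 and Btnl5-ps carry that uncertainty.

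**Figure D1:**
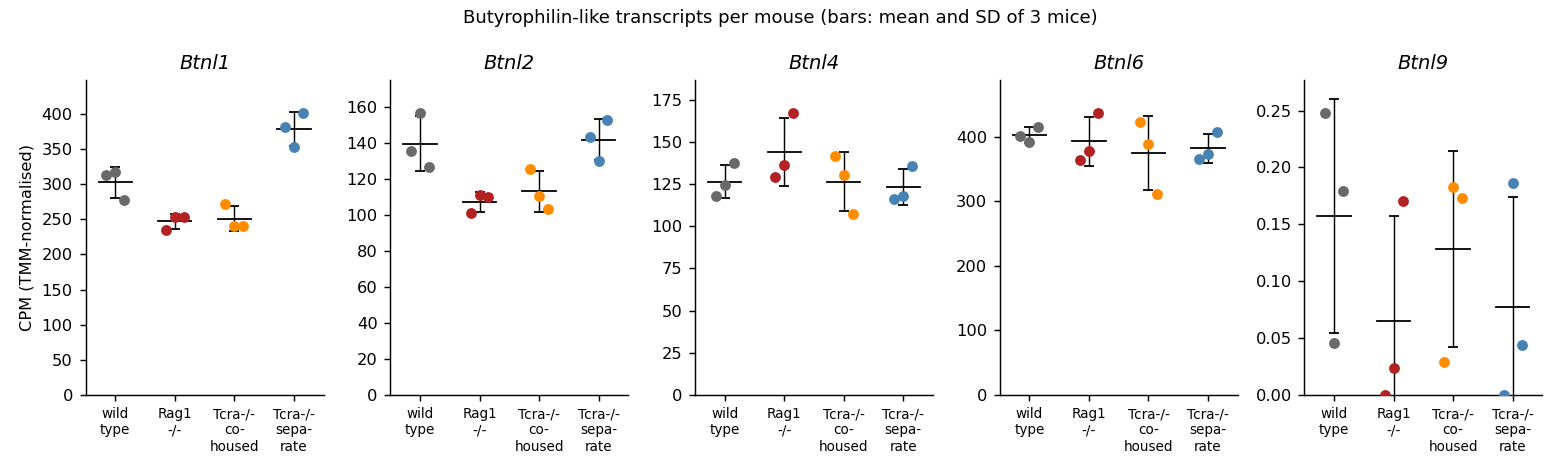
CPM (vertical axis from 0, a different scale for each gene) of the 5 genes in each mouse (points) by group, with mean and SD of 3 mice. Btnl1 is highest in separately housed Tcra-/- mice (354 to 401 CPM), and the Btnl4 and Btnl6 points of the 4 groups overlap.

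Btnl1, the obligate partner in the known surface pairs, differed most over the groups. In separately housed Tcra-/- mice it stood at 382, 354 and 401 CPM. In wild type it stood at 313, 318 and 277 CPM. In co-housed Tcra-/- mice it stood at 272, 240 and 241 CPM, and in mice labelled Rag1-/- at 234, 254 and 253 CPM. All separately housed mice lay above all others, all wild-type mice lay above all co-housed and Rag1-/- mice, and the last 2 groups overlapped. Of all genes tested, 40.7% likewise did not overlap between separately housed mice and wild type, 57.9% between separately housed and co-housed mice, and 60.1% between separately housed mice and mice labelled Rag1-/-. Between wild type and co-housed mice the share was 41.7%, and between wild type and mice labelled Rag1-/- it was 45.7%. The Btnl1 means were 379 ± 23.9 CPM in separately housed mice, 303 ± 22.2 in wild type, 251 ± 18.2 in co-housed mice and 247 ± 11.1 in mice labelled Rag1-/- (SD, n = 3).

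Btnl2, the member that dampens T cells in culture, split the groups 2 and 2. It stood at 135, 156 and 127 CPM in wild type and at 143, 130 and 153 CPM in separately housed Tcra-/- mice. It stood at 125, 110 and 103 CPM in co-housed Tcra-/- mice and at 101, 111 and 110 CPM in mice labelled Rag1-/-. The first 2 groups overlapped, as did the last 2, and every mouse of the first 2 lay above every mouse of the last 2, by a narrow margin for co-housed mouse 1 against wild-type mouse 3. Of all genes tested, 41.7% likewise did not overlap between co-housed mice and wild type, and 57.9% between co-housed and separately housed mice. For mice labelled Rag1-/- the share was 45.7% against wild type and 60.1% against separately housed mice.

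Btnl4 and Btnl6, the reverse-strand genes, overlapped between all groups. Btnl4 stood at 118, 125 and 137 CPM in wild type, 116, 118 and 136 CPM in separately housed, 142, 130 and 108 CPM in co-housed Tcra-/- mice, and 129, 136 and 167 CPM in mice labelled Rag1-/-. Btnl6, the partner of Btnl1, stood at 401, 392 and 415 CPM in wild type and 366, 373 and 407 CPM in separately housed Tcra-/- mice. It stood at 423, 388 and 311 CPM in co-housed Tcra-/- mice and 364, 378 and 436 CPM in mice labelled Rag1-/-. Co-housed mouse 3 was the lowest and mouse 3 labelled Rag1-/- the highest of the 12 for both genes. Btnl9 had 21 reads in wild type, 16 in co-housed and 10 in separately housed Tcra-/- mice, and 9 in mice labelled Rag1-/-, at most 0.247 CPM in any mouse, and no difference was detectable at this depth.

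Tested over the 4 groups jointly, with edgeR's quasi-likelihood test adjusted over all 15866 genes tested and a threshold of 0.01, 2 of the 4 tested members differed. These were Btnl1 (adjusted p = 1.11e-05) and Btnl2 (adjusted p = 0.00172). Btnl4 (adjusted p = 0.271) and Btnl6 (adjusted p = 0.768) did not pass. Of all genes tested, 41.7% passed, so 2 of 4 is close to the background share. Both calls held in all 15 other fits tried. All adjusted p-values of single genes below come from this edgeR model.

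**Figure D2:**
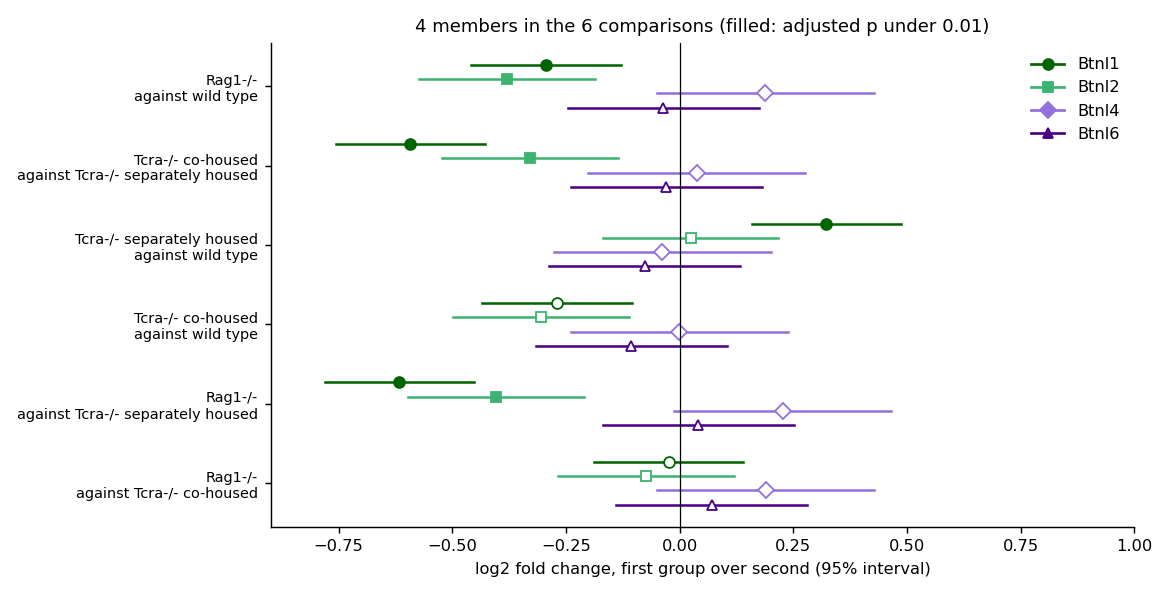
Log2 fold change (first group over second) of the 4 tested members in the 6 pairwise comparisons, with 95% intervals; filled symbols passed an adjusted p of 0.01. Btnl1 lies farthest from 0, at -0.59 and -0.62, in the comparisons with separately housed Tcra-/- mice, and the intervals of Btnl4 and Btnl6 include 0 in all 6.

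In mice labelled Rag1-/- against wild type, the first comparison of the design, Btnl1 and Btnl2 were lower and Btnl4 and Btnl6 did not pass. Btnl1 fell by 0.29 on the log2 scale (SE 0.08, adjusted p = 0.00813) and Btnl2 fell by 0.38 (SE 0.09, adjusted p = 0.00446), with no overlap between the groups for either gene, which was so for 45.7% of all genes tested. Btnl4 had a log2 fold change of 0.19 (95% interval -0.05 to 0.43, adjusted p = 0.225) and Btnl6 of -0.04 (-0.25 to 0.17, adjusted p = 0.822). The 2 of 4 members called stand beside 20.9% of all genes. Both calls rested on all but 1 of the 6 libraries: without mouse 1, 2 or 3 labelled Rag1-/-, or without wild-type mouse 1 or 2, the adjusted p was 0.0183 to 0.0456 for Btnl1 and 0.0104 to 0.0300 for Btnl2, at log2 fold changes of -0.26 to -0.31 and -0.29 to -0.40.

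The housing comparison of the design, co-housed against separately housed Tcra-/- mice, gave the larger difference in Btnl1. It was 1.51-fold lower in co-housed mice (log2 fold change -0.59, SE 0.08, adjusted p = 1.09e-05), and this passed in all 11 other fits tried. Btnl2 fell by 0.33 on the log2 scale (SE 0.09, adjusted p = 0.00671). Btnl4 had a log2 fold change of 0.04 (95% interval -0.20 to 0.28) and Btnl6 of -0.03 (-0.24 to 0.18), so changes of the size seen in Btnl1 lie outside both intervals. The 2 of 4 members called stand beside 38.8% of all genes. The Btnl2 call was lost without co-housed mouse 2 (adjusted p = 0.0311) or 3 (0.0312), without separately housed mouse 1 (0.0215) or 3 (0.0371), and with the 6 libraries fitted alone (0.0112).

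Each Tcra-/- group was also set against wild type, and these comparisons share samples with those above. Btnl1 was 1.25-fold higher in separately housed Tcra-/- mice than in wild type (log2 fold change 0.32, SE 0.08, adjusted p = 0.00635), the 1 of 4 members called beside 13.8% of all genes. Btnl2 had a log2 fold change of 0.02 (95% interval -0.17 to 0.22), Btnl4 of -0.04 and Btnl6 of -0.08. The Btnl1 call was lost without separately housed mouse 1 (adjusted p = 0.0203) or 3 (0.0319), without wild-type mouse 1 (0.0147) or 3 (0.0378), and with the 6 libraries fitted alone (0.0120).

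In co-housed Tcra-/- mice against wild type none of the 4 members was called by edgeR, beside 18.5% of all genes, while 2 had an unadjusted p under 0.05. Btnl1 had a log2 fold change of -0.27 (adjusted p = 0.0149) and Btnl2 of -0.30 (adjusted p = 0.0190), and neither overlapped between the groups, which was so for 41.7% of all genes tested. Both passed when libraries were scaled by size alone (adjusted p = 0.0004 and 0.000966) or by the epithelial list (0.00521 and 0.00647), with DESeq2 (0.00425 and 0.00995), and without co-housed mouse 1 (0.00818 and 0.00790), and Btnl1 passed without wild-type mouse 3 (0.00761). Btnl4 had a log2 fold change of -0.0009 and Btnl6 of -0.11 (95% interval -0.32 to 0.10).

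Mice labelled Rag1-/- were also set against each Tcra-/- group, again with shared samples. Against separately housed Tcra-/- mice, Btnl1 was 1.53-fold lower (log2 fold change -0.62, SE 0.08, adjusted p = 8.46e-06) and Btnl2 1.32-fold lower (-0.40, SE 0.09, adjusted p = 0.00173), 2 of 4 members beside 36.1% of all genes. The Btnl1 call passed in all 11 other fits, and the Btnl2 call was lost without mouse 1 labelled Rag1-/- (adjusted p = 0.0114) or without separately housed mouse 3 (0.0114). Btnl4 had a log2 fold change of 0.23 (95% interval -0.01 to 0.47, adjusted p = 0.106) and Btnl6 of 0.04. Against co-housed Tcra-/- mice no member was called by edgeR or by DESeq2, beside 2.89% of all genes: the log2 fold changes were -0.02 for Btnl1 (95% interval -0.19 to 0.14), -0.07 for Btnl2 (-0.27 to 0.12), 0.19 for Btnl4 (-0.05 to 0.43) and 0.07 for Btnl6 (-0.14 to 0.28), and none of the 4 had an unadjusted p under 0.05.

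The proportions of the members to each other also differed over the groups. The log2 ratio of the counts of 2 members within a library does not depend on how libraries are scaled, and all 10 pairs were tested over the 4 groups with an exact permutation test over the 15400 ways to divide 12 libraries into 4 groups of 3. The 6 pairs among Btnl1, Btnl2, Btnl4 and Btnl6 passed a Benjamini-Hochberg adjusted p of 0.05 over the 10 pairs, and the 4 pairs with Btnl9 did not (adjusted p = 0.538 for each). These 6 ratios are formed from 4 genes, so they do not vary independently. Ratios of other gene pairs were not tested, so no background share stands beside this count. Of all single genes tested with edgeR, 41.7% differed over the 4 groups. That share comes from another test with a lower threshold of adjusted p, so it is not a background for the pairs. Whether 6 of 10 is more than among other gene pairs was not tested. How often the ratio of other gene pairs sets a group apart from the rest was not tested either.

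The Btnl1 to Btnl6 ratio concerns the pair that acts on gamma delta T cells. It was 0.06, -0.08 and -0.02 on the log2 scale in separately housed Tcra-/- mice and -0.36, -0.30 and -0.58 in wild type. It was -0.64, -0.69 and -0.37 in co-housed Tcra-/- mice and -0.63, -0.58 and -0.78 in mice labelled Rag1-/-. The 3 separately housed mice lay above the other 9, which overlapped from group to group (exact permutation p = 0.00312, adjusted p = 0.00974).

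Of the 6 pairs without Btnl9, the Btnl1 to Btnl4 ratio had the widest range of group means, with of 1.62 ± 0.08 in separately housed, 1.26 ± 0.21 in wild type, 1.00 ± 0.15 in co-housed Tcra-/- mice and 0.78 ± 0.16 in mice labelled Rag1-/- (SD, n = 3; exact permutation p = 0.00110, adjusted p = 0.00974). The Btnl2 to Btnl4 ratio went from -0.42 ± 0.16 in mice labelled Rag1-/- and -0.16 ± 0.09 in co-housed to 0.14 ± 0.23 in wild type and 0.20 ± 0.09 in separately housed mice (exact permutation, adjusted p = 0.00974). Btnl1 and Btnl2, which share a strand, did not keep a fixed ratio either: it was 1.39 to 1.45 in separately housed mice and 1.03 to 1.23 in the other 9 (exact permutation, adjusted p = 0.0122). The Btnl2 to Btnl6 ratio differed too (exact permutation, adjusted p = 0.0285).

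Btnl4 and Btnl6, neither of which passed by itself, differed in their ratio. Its means were -1.45 ± 0.06 in mice labelled Rag1-/-, -1.56 ± 0.03 in co-housed, -1.63 ± 0.04 in separately housed and -1.67 ± 0.09 in wild-type mice (SD, n = 3; exact permutation, adjusted p = 0.00974). The 3 mice labelled Rag1-/- lay above the other 9. The range of the group means was 0.22, the narrowest of the 6 pairs, and these are the genes that share part of their sequence.

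**Figure D3:**
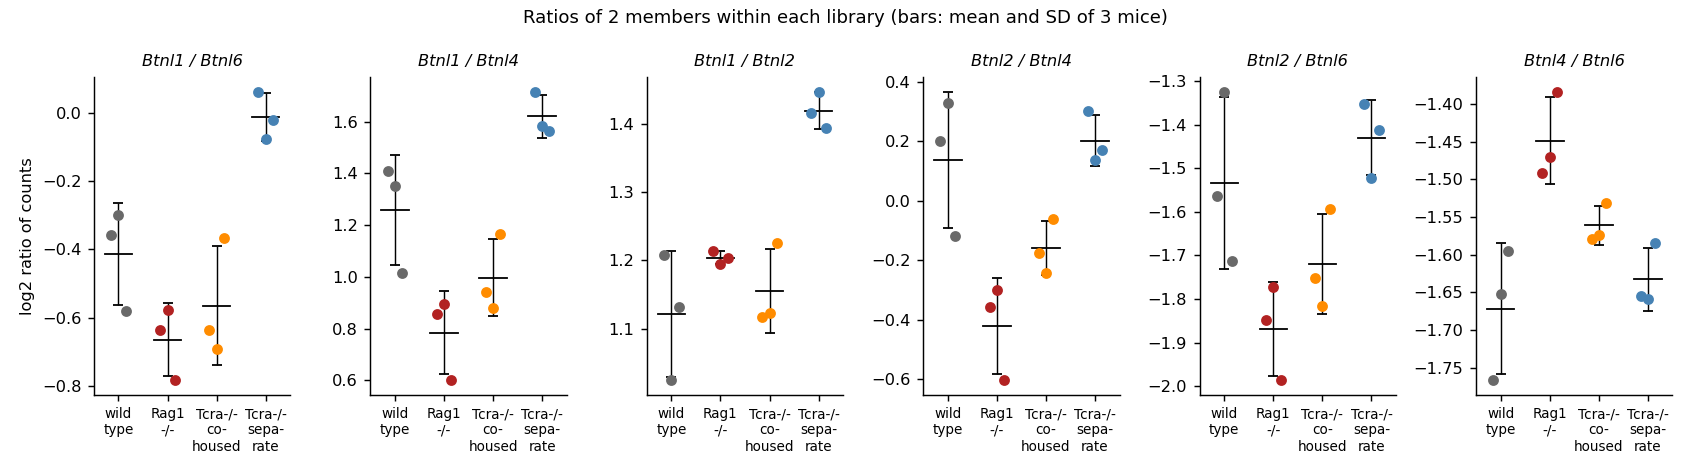
Log2 ratio of the counts of 2 members within each library (points) by group, with mean and SD of 3 mice, each panel on its own scale. Separately housed Tcra-/- mice stand apart in Btnl1 over Btnl6 (-0.08 to 0.06) and Btnl1 over Btnl2 (1.39 to 1.45), and mice labelled Rag1-/- in Btnl4 over Btnl6 (-1.49 to -1.38).

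Expressed as shares of the summed RPKM of the 4 expressed members, Btnl1 made up 33.2% ± 0.907 in separately housed Tcra-/- mice, 27.7% ± 1.87 in wild type, 25.7% ± 2.06 in co-housed Tcra-/- mice and 24.3% ± 1.34 in mice labelled Rag1-/- (SD, n = 3). Btnl6 made up 43.6% ± 0.982 in separately housed mice and 48.0% to 50.1% on average in the other groups. The summed RPKM itself was 540 ± 33.0, 518 ± 5.08, 466 ± 56.2 and 483 ± 40.1 in the same group order as for Btnl1. Its range in the separately housed mice (515 to 578 RPKM) overlapped that in each other group.

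Between the Tcra-/- groups, the tested neighbours left of Btnl2 differed by more than Btnl1 and Btnl2, and in the opposite direction. Of 25 other genes within 200 kb of the chromosome 17 members, 24 were tested, and in co-housed against separately housed Tcra-/- mice 12 were higher and 1 was lower, where 21.1% of all genes tested were higher and 17.7% lower. In separately housed mice against wild type, 14 of the 24 were lower and none was higher, where 7.7% of all genes were lower and 6.06% higher. H2-Aa, a class II chain that presents antigen, stood at 158, 159 and 130 CPM in separately housed mice and at 1494.8, 1525 and 920 CPM in co-housed mice (log2 fold change 3.14, SE 0.19, adjusted p = 9.1e-08). The nearest tested gene left of Btnl2, at 13412 bases, was the class II gene H2-Eb2 (log2 fold change 1.04, adjusted p = 0.00348). BC051142, between Btnl1 and Btnl4, was also higher in co-housed mice (1.58, adjusted p = 8.79e-05), at 0.373 to 1.51 CPM in the 2 groups.

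On the right, Notch4 lies 46943 bases from Btnl6 (log2 fold change 0.30, adjusted p = 0.197). Btnl5-ps, which lies between Btnl4 and Btnl6, passed in none of the 6 comparisons, with a log2 fold change of 0.15 (adjusted p = 0.141) between the Tcra-/- groups. In number higher and lower of the 24, mice labelled Rag1-/- gave 0 and 6 against wild type, where 9.42% of all genes were higher and 11.5% lower. The 6 were H2-Eb2 (log2 fold change -5.28), H2-Ob (-4.37), Prrt1 (-1.92), Gpsm3 (-0.95), H2-Ab1 (-0.79) and H2-Eb1 (-0.78). Each fell by more than Btnl1 (-0.29) and Btnl2 (-0.38) did there. Mice labelled Rag1-/- gave 9 and 3 against separately housed Tcra-/- mice (18% and 18.1% of all genes), and 0 and 3 against co-housed mice (0.34% and 2.55%). Around Btnl9, 7 of 16 neighbours were tested, of which 6 were higher and 1 lower in co-housed mice. The nearest of these to Btnl9 were Olfr56 on the left (log2 fold change 3.17, adjusted p = 7.73e-08) and Zfp62 on the right (0.60, adjusted p = 0.000165).

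**Figure D4:**
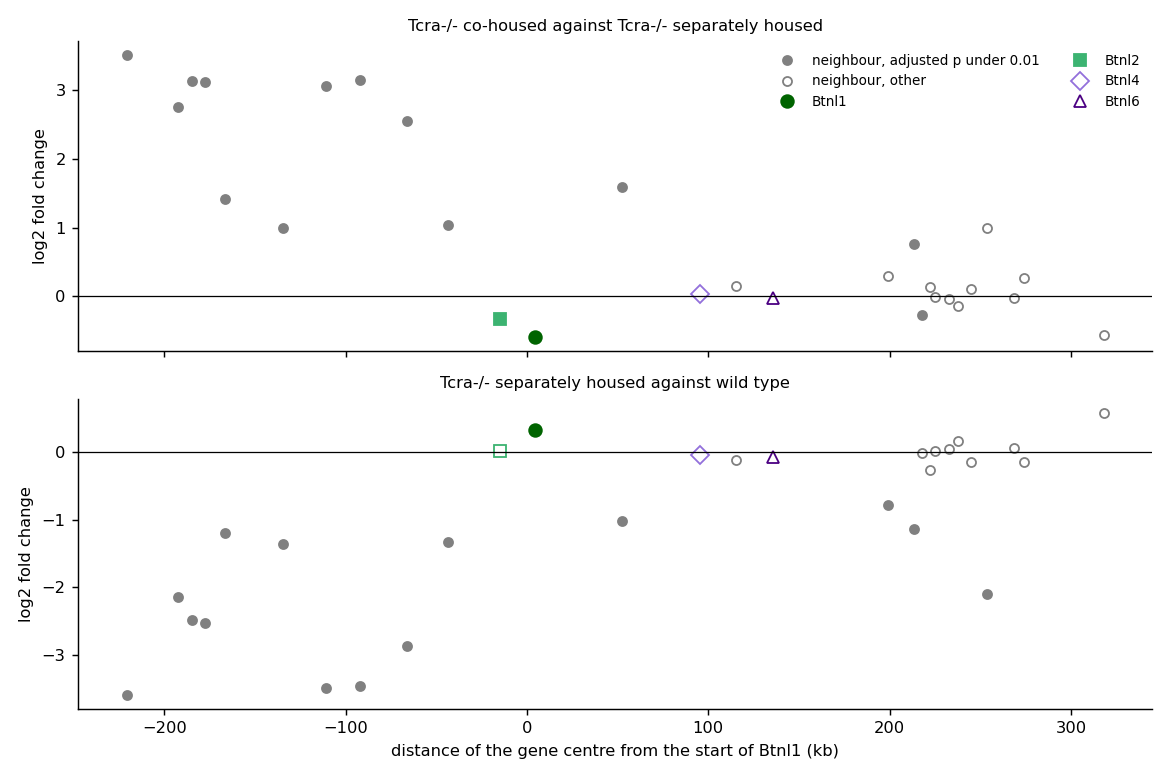
Log2 fold change of the chromosome 17 members and tested neighbours, by distance of the gene centre from the start of Btnl1 in kilobases, for Tcra-/- mice, co-housed against separately housed (top) and separately housed mice against wild type (bottom); filled symbols passed an adjusted p of 0.01. H2-Aa, left of Btnl2, is at 3.14 in the top panel and -3.46 in the bottom, while the members lie between -0.59 and 0.32.

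Genes whose profile over the 12 libraries came closest to those of Btnl1 and Btnl2 were sought among the 12248 other genes with a mean log2 CPM above 1, by the root mean square distance of centred log2 CPM. For Btnl1 the 5 closest were Cndp2, a peptidase (distance 0.06, where the spread of Btnl1 itself was 0.26), Mogat2, an enzyme of enterocyte fat absorption (0.07), Tollip, Tmcc1 and Prkcd (each 0.07). For Btnl2 they were Epcam, the pan-epithelial adhesion molecule (0.06, against a spread of 0.21), Fkbp1a (0.06), Vil1, the villin of the brush border (0.06), Aes (0.06) and Ccl25, a chemokine for small intestinal lymphocytes (0.06). Btnl2 came 328th in closeness to Btnl1, ahead of Btnl6 (4192nd) and Btnl4 (6449th). Btnl1 came 247th in closeness to Btnl2, and Btnl6 came 2335th. These are descriptions over 12 libraries that share groups and depth.

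Villus enterocyte genes were lower, as Btnl1 and Btnl2 were, between the Tcra-/- groups and in mice labelled Rag1-/- against wild type. Btnl4 and Btnl6 passed in neither comparison. In separately housed mice against wild type, where Btnl1 was higher, 18 of 20 villus genes were not called. Of 20 such genes, 15 were lower and none higher in co-housed than in separately housed Tcra-/- mice, 11 lower and none higher in mice labelled Rag1-/- than in wild type, and 1 higher and 1 lower in separately housed mice than in wild type. The median log2 fold changes were -1.42, -0.83 and 0.42, against -0.01, -0.02 and 0.00 over all genes tested. Of all genes tested, 21.1% were higher and 17.7% lower between the Tcra-/- groups. The shares were 9.42% and 11.5% in mice labelled Rag1-/- against wild type, and 6.06% and 7.7% in separately housed mice against wild type. Alpi, the brush border alkaline phosphatase, had 708 to 868 CPM in separately housed mice, 452 to 580 in wild type, 214 to 315 in co-housed and 288 to 314 in mice labelled Rag1-/-. The list summed to 41566 to 48975 CPM in separately housed mice, 35041 to 39253 in wild type, 25496 to 31993 in co-housed mice and 27322 to 31412 in mice labelled Rag1-/-, with no gene at 0 in a whole group. Of 12 crypt genes, 6 were higher and none lower in co-housed than in separately housed mice, among them Mki67, a gene of dividing cells (log2 fold change 1.04, adjusted p = 2.96e-05). The part of these in the Btnl1 and Btnl2 results was not tested.

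Among 16 transcription regulators of enterocytes, Hnf4g was highest in separately housed Tcra-/- mice and next in wild type, as Btnl1 was. This nuclear receptor stood at 574, 657 and 596 CPM in separately housed Tcra-/- mice and at 467, 463 and 407 CPM in wild type. It stood at 347, 315 and 253 CPM in co-housed Tcra-/- mice and at 359, 371 and 358 CPM in mice labelled Rag1-/-. Separately housed mice lay above wild type, and wild type above the other 2 groups. Every mouse labelled Rag1-/- lay above every co-housed mouse, where those groups overlapped for Btnl1. Hnf4g fell by 1.00 on the log2 scale in co-housed against separately housed mice (SE 0.10, adjusted p = 6.1e-07) and was 0.45 higher in separately housed mice than in wild type (adjusted p = 0.00333). In mice labelled Rag1-/- against wild type its log2 fold change was -0.30 (adjusted p = 0.0294), which did not pass.

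Its relative Hnf4a did not follow that order. Hnf4a was at 955 ± 41.4 CPM in separately housed mice, 1065 ± 10.1 in wild type, 1132 ± 90.2 in co-housed mice and 1206 ± 52.4 in mice labelled Rag1-/- (SD, n = 3). It passed in mice labelled Rag1-/- against separately housed mice (log2 fold change 0.34, adjusted p = 0.00128) and not in the other 5 comparisons. The intestinal homeobox genes Cdx1 (121 to 143 CPM as group means) and Cdx2 (133 to 156) passed in none of the 6. Smad4 (0.93, adjusted p = 2.24e-07), Elf3 (1.03, adjusted p = 3.68e-07) and Prdm1 (1.52, adjusted p = 2.54e-08) were higher in co-housed than in separately housed mice, against the direction of Btnl1. In all, 4 regulators were higher and 5 lower there, and 5 were higher and none lower in mice labelled Rag1-/- than in wild type. Of all genes tested, 21.1% were higher and 17.7% lower in the former comparison, and 9.42% and 11.5% in the latter.

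Other epithelial genes that act on intraepithelial lymphocytes were tested beside the members. Il15, the cytokine that sustains these cells, was also highest in separately housed mice and next in wild type, with the other 2 groups overlapping as for Btnl1: 27.8 to 31.6 CPM in separately housed Tcra-/- mice, 16.4 to 17.6 in wild type, 8.82 to 10.6 in co-housed mice and 9.74 to 10.3 in mice labelled Rag1-/-. It fell by 1.66 on the log2 scale in co-housed against separately housed mice (SE 0.10, adjusted p = 2.53e-09) and by 0.74 in mice labelled Rag1-/- against wild type (adjusted p = 1.68e-05). Il15ra, the receptor chain that presents it, was higher in co-housed mice (1.02, adjusted p = 5.37e-06). H2-T3, the thymus leukaemia antigen, which CD8 alpha binds, stood at 231 ± 11.1 and 225 ± 25.3 CPM in separately housed and wild-type mice. It stood at 157 ± 8.48 and 151 ± 12.5 CPM in co-housed mice and mice labelled Rag1-/- (SD, n = 3), the split that Btnl2 showed. Of 12 tested genes of this list, 2 were higher and 5 lower in co-housed against separately housed mice, and 1 higher and 5 lower in mice labelled Rag1-/- against wild type. The shares of all genes tested were 21.1% higher and 17.7% lower in the former comparison, and 9.42% and 11.5% in the latter.

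**Figure D5:**
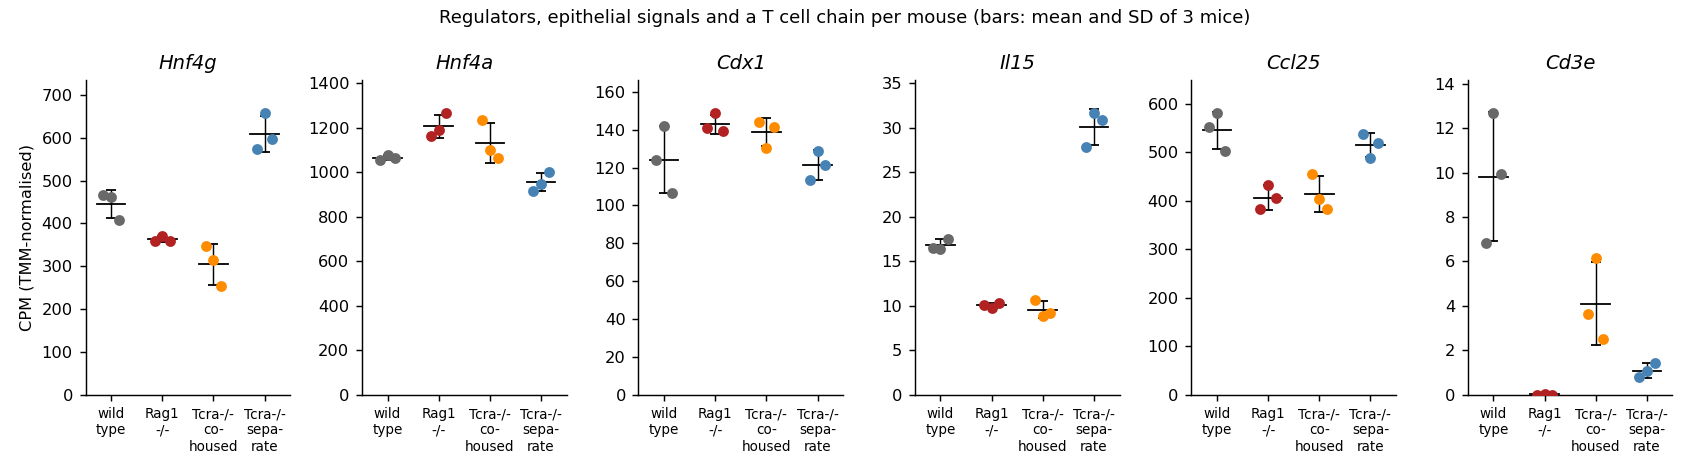
CPM (vertical axis from 0, a different scale for each gene) in each mouse (points) by group, with mean and SD of 3 mice, for Hnf4g, Hnf4a, Cdx1, Il15, Ccl25 and Cd3e. Hnf4g and Il15 are highest in separately housed Tcra-/- mice (574 to 657 and 27.8 to 31.6 CPM), and Cd3e, a T cell receptor component, is highest in wild type (6.84 to 12.7 CPM).

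Lymphocyte transcripts did not have the group order of Btnl1 or Btnl2. Of 25 genes of intraepithelial lymphocytes, 21 were lower in separately housed Tcra-/- mice than in wild type, where Btnl1 was higher, and 19 were higher in co-housed than in separately housed mice, where Btnl1 and Btnl2 were lower. In mice labelled Rag1-/-, 16 of the 25 were lower than in wild type, as were Btnl1 and Btnl2. In the same comparisons and order, 7.7% of all genes tested were lower, 21.1% higher and 11.5% lower. The list summed to 303 to 451 CPM in wild type, 161 to 290 in co-housed mice, 131 to 160 in mice labelled Rag1-/- and 87.1 to 102 in separately housed mice. Cd8a, a coreceptor chain of many of these cells, fell by 3.35 on the log2 scale in separately housed mice against wild type (adjusted p = 4.91e-07) and by 3.94 in mice labelled Rag1-/- (adjusted p = 4.06e-08). Of 15 names for gamma delta receptor and CD3 chains, the 4 CD3 chains were matched; the receptor chains that the Btnl1 and Btnl6 pair acts on were not analysed here.

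The wider butyrophilin family was scarce in the ileum. Of 15 such genes outside the 5, 3 were tested (Btn1a1, Ermap and Skint4), and the 15 together summed to 1.72 to 2.73 CPM. Btn1a1, named for the milk fat globule, was higher in mice labelled Rag1-/- (0.491 to 0.906 CPM) than in wild type (0.09 to 0.224 CPM; log2 fold change 2.27, SE 0.53, adjusted p = 0.00353), on 85 and 18 reads. Ermap and Skint4 passed in none of the 6 comparisons.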

How the data were processed

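Raw read counts per gene were used as deposited by the authors, 1 table for 12 libraries, with the exon length in bases per the file headers. Per the submitters' processing notes, bcl2fastq, TopHat2 2.0.11, Bowtie2 2.2.2.0, featureCounts of Subread 1.4.5-p1, DESeq2 1.12.3 and mm9 were used; the sources used here give neither the annotation nor the strand setting. Per the labels' protocols, the RNA was isolated with Trizol and the kit was a stranded mRNA kit, which does not say how strand was counted.

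Genes were filtered with filterByExpr, scaled with TMM (factors 0.926 to 1.07) and fitted in edgeR 4.0.16 (robust quasi-likelihood, a term for each group, residual degrees of freedom 8, R 4.3.3). Benjamini-Hochberg adjustment ran over 15866 genes, with a threshold of 0.01, and tests were two-sided. Log2 CPM used a prior count of 2, and ratios a pseudocount of 0.5 counts. The scripts were tested on simulated data. Ratio tests used the exact permutation F statistic, whose smallest p is 6.49e-05. Alternatives were library size alone, scaling to the epithelial list, DESeq2 1.42.0, no filter, the 6 libraries of a comparison alone, each library left out and no pseudocount.

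The members, the 13 gene lists (170 of 181 names matched) and the rules were chosen with earlier results of these data known. Named were all members, up to 4 genes of a list with the smallest p over the groups, 4 fixed regulators, the nearest neighbours within 200 kb and the 5 closest profiles. Motifs and promoter windows came from RefSeq tables (GRCm38.p6).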

Additional observations from a re-analysis of the deposited data

How the results depend on the processing

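The members called in co-housed Tcra-/- mice against wild type rose from 0 to 2 with library size alone, with scaling to the epithelial list and with DESeq2. With the 6 libraries of a comparison fitted alone, the count was 1 in place of 2 between the Tcra-/- groups and 0 in place of 1 for separately housed mice against wild type. With 1 library left out, the counts ran from 0 to 2 for mice labelled Rag1-/- against wild type, 1 to 2 for co-housed against separately housed mice, 0 to 1 for separately housed mice against wild type, 0 to 2 for co-housed mice against wild type and 1 to 2 for mice labelled Rag1-/- against separately housed mice.

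Among the members, and over the alternatives run, direction turned only for differences that were not called. With library size alone the log2 fold change of Btnl4 was -0.073 in co-housed against separately housed mice, and that of Btnl6 was -0.12 in mice labelled Rag1-/- against separately housed mice (-0.030 with the epithelial list). DESeq2 gave Btnl1 0.000292 in mice labelled Rag1-/- against co-housed mice. With 1 library left out, log2 fold changes had these ranges across 0. For Btnl1 it was -0.053 to 0.037 in mice labelled Rag1-/- against co-housed mice. For Btnl2 it was -0.14 to 0.0074 in mice labelled Rag1-/- against co-housed mice and -0.042 to 0.11 in separately housed mice against wild type. For Btnl4 it was -0.049 to 0.14 between the Tcra-/- groups, -0.089 to 0.10 in co-housed mice against wild type and -0.11 to 0.023 in separately housed mice against wild type. For Btnl6 it was -0.12 to 0.017 in mice labelled Rag1-/- against wild type, -0.040 to 0.095 in mice labelled Rag1-/- against separately housed mice, -0.047 to 0.17 in mice labelled Rag1-/- against co-housed mice, -0.13 to 0.089 between the Tcra-/- groups and -0.20 to 0.012 in co-housed mice against wild type.

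Library size alone moved the median log2 fold change of all genes by 0.0113 to 0.167, most in mice labelled Rag1-/- against wild type (from -0.02 to -0.19). All genes called in mice labelled Rag1-/- against co-housed mice numbered 459, or 840 with DESeq2, 281 with the 6 libraries alone, and 297 and 304 without mouse 2 labelled Rag1-/- and without co-housed mouse 2. In separately housed mice against wild type, 2182 became 1281 without separately housed mouse 3. The cause was not tested. No paired analysis was possible because the replicate numbers only follow the order of the records and pair no mice. Depth limited Btnl9 alone among the members.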
